A study of Mus musculus with 9 samples.

Results

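The 10 genes described here encode inhibitors of cyclin-dependent kinases (Cdkn1a, Cdkn1b, Cdkn1c, Cdkn2c and Cdkn2d), the D cyclins (Ccnd1, Ccnd2 and Ccnd3) and the G1 kinases CDK4 and CDK6 (Cdk4 and Cdk6). They were chosen by symbol, and all 10 were found among the 14940 gene symbols of the deposited table. RNA came from LSK cells, the sorted bone marrow cells without lineage markers that carry Sca-1 and c-Kit and hold stem cells and multipotent progenitors. The mice were C57BL/6, 3 per group. Naive mice received nothing that the labels name. EAE mice, a model of autoimmune inflammation of the central nervous system, were taken 3 days after they received peptide 35 to 55 of myelin oligodendrocyte glycoprotein with complete Freund's adjuvant. The third group was immunized alike and also received SR59230A, a β3-adrenergic receptor antagonist, for 3 days. The labels name no vehicle and no group with adjuvant alone, so adjuvant and peptide, and the antagonist and its administration, cannot be told apart. The age of the mice is not given in the sources used here.

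In G1, a D cyclin binds CDK4 or CDK6, and the active pair phosphorylates the retinoblastoma proteins, which then release E2F factors for entry into S phase. The INK4 inhibitors (Cdkn2c encodes p18 and Cdkn2d encodes p19) bind CDK4 and CDK6 themselves, and the CIP/KIP inhibitors (Cdkn1a encodes p21, Cdkn1b p27 and Cdkn1c p57) bind cyclin-kinase complexes. In bone marrow, p57 is known for keeping stem cells out of cycle, and CDK6 for their exit from quiescence.

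Each value below is a deposited whole number divided by a median-of-ratios factor of its library. The deposited numbers are adjusted values, not read counts, so sequencing depth cannot be read from them and the counting error of a value is unknown. They summed to between 8641735 and 10387955 per library, are not known to be divided by gene length, and give no comparison of level between genes. In bulk RNA, fewer cells of a type and less RNA per cell cannot be told apart. The gate genes Kit and Ly6a (Sca-1) were present in all 9 libraries, at 7959 or more when summed in naive, 6884 or more in EAE and 7371 or more in treated mice. In both comparisons with naive mice, Kit was called lower and Ly6a higher. Without scaling, Ly6a did not pass in EAE against naive mice, while both calls stood in treated against naive mice.

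Across the genes, immunization went with more Cdk6 and with less Cdkn1c, Ccnd1 and Ccnd2. Cdk6 was 1.74-fold higher in EAE than in naive mice, while Cdkn1c fell by 44.6%, Ccnd1 fell by 36.0% and Ccnd2 fell by 31.1%. These 4 of the 10 genes passed the threshold, an adjusted p under 0.05 in limma-trend fitted over 13018 genes with Benjamini-Hochberg adjustment, against 14.2% of all genes tested. The 1 higher gene stands beside 9.13% of all genes, and the 3 lower genes beside 5.10%. In treated against EAE mice 0 of the 10 passed (lowest adjusted p 0.998 in limma-trend), against 0.00768% of all genes, which is 1 gene. In treated against naive mice 6 passed, with Cdk6, Ccnd3, Cdk4 and Cdkn2d higher and Cdkn1c and Ccnd2 lower, against 14.8% of all genes (10.2% higher and 4.61% lower). Without naive replicate 1, or without scaling, the count was 2 in each comparison with naive mice, and in treated against naive mice it was 2 without treated replicate 2 and 3 without treated replicate 3. The comparisons with naive mice share the naive libraries and are not independent of each other.

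**Figure D1:**
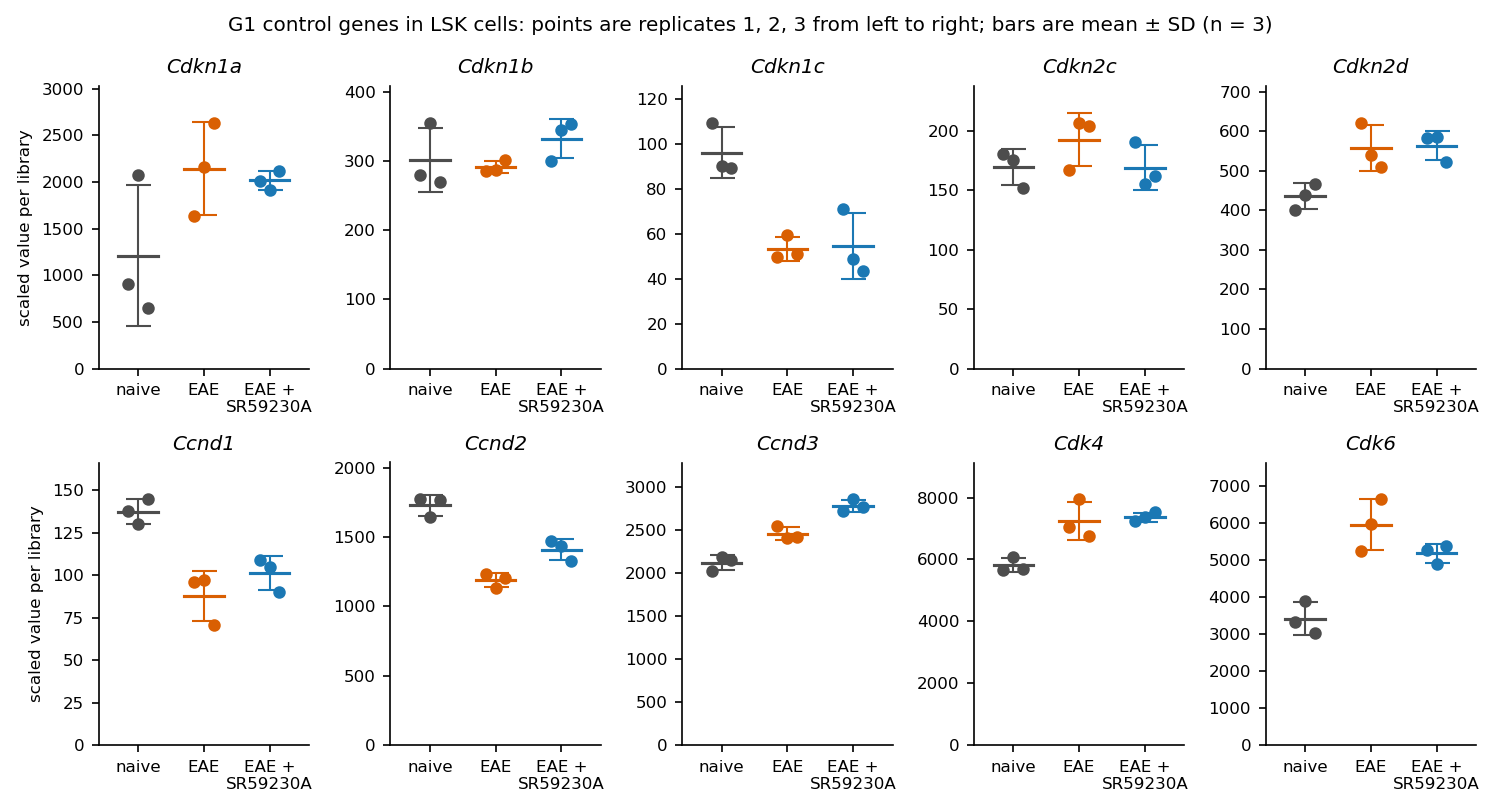
Scaled value per library (vertical axis from 0, each gene on its own scale) for the 10 genes in naive, EAE and SR59230A-treated EAE mice; points are replicates and bars are mean ± SD (n = 3). The naive libraries lie above all others for Cdkn1c, Ccnd1 and Ccnd2 and below all others for Cdkn2d, Ccnd3, Cdk4 and Cdk6, and the naive points of Cdkn1a spread from 650 to 2077.

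Among the CIP/KIP inhibitors, Cdkn1c was low in both immunized groups. It stood at 109, 90.03 and 89.2 in the naive libraries, at 49.7, 59.3 and 51.1 in the EAE libraries and at 71.2, 48.9 and 43.3 in the treated libraries. Every immunized library lay below every naive one, and treated replicate 1 was the highest of the 6. Cdkn1c fell by 0.84 ± 0.24 on the log2 scale (SE) in EAE against naive mice (limma-trend adjusted p = 0.0362) and by 0.84 ± 0.24 in treated against naive mice (adjusted p = 0.0360). Between the immunized groups the difference was 0.0034 on the log2 scale, with a 95% interval (not adjusted for the number of genes) from -0.52 to 0.52. The call in EAE against naive mice was lost without naive replicate 1 (limma-trend adjusted p = 0.0934), which held the highest value, and without scaling (0.0548). The call in treated against naive mice was lost without naive replicate 1 (0.0916), treated replicate 2 (0.0752) or treated replicate 3 (0.0686).

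Cdkn1a, a p53 target gene, had the widest spread of the 10 genes among the naive mice. Its values were 908, 2077 and 650 in naive libraries, 1634, 2163 and 2635 in EAE libraries and 2013, 1916 and 2123 in treated libraries. Naive replicate 2 lay inside the range of the immunized libraries, and the other two naive libraries lay below all 6 of them. The means were 1212 ± 761 in naive, 2144 ± 501 in EAE and 2017 ± 104 in treated mice (SD, n = 3 each). The log2 differences from naive mice, 0.98 ± 0.33 in EAE and 0.92 ± 0.33 in treated mice, did not pass the threshold (limma-trend adjusted p = 0.0688 and 0.0812). Without naive replicate 2 both passed, at 1.46 ± 0.20 (limma-trend adjusted p = 0.00235) and 1.39 ± 0.20 (0.00276), and the EAE difference also passed without EAE replicate 1 (1.16 ± 0.35, adjusted p = 0.0454). The p53 pathway genes Trp53 and Mdm2 did not pass in EAE against naive mice, at log2 differences of -0.10 ± 0.09 and 0.23 ± 0.12. The activity of p53 and its part in the Cdkn1a values was not tested.

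Cdkn1b showed no group difference beyond its spread. It stood at 280, 355 and 270 in naive libraries, at 285, 288 and 302 in EAE libraries and at 300, 344 and 353 in treated libraries. The 3 groups overlapped, and the 95% interval of the log2 difference between EAE and naive mice ran from -0.34 to 0.26.

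Of the INK4 genes, Cdkn2d was higher after immunization and Cdkn2c was not separated. Cdkn2d values were 401, 439 and 467 in naive, 621, 540 and 510 in EAE and 583, 586 and 523 in treated libraries. All 6 immunized libraries lay above the naive ones. The log2 difference was 0.35 ± 0.12 in EAE against naive mice, which did not pass (limma-trend adjusted p = 0.0636), and 0.37 ± 0.12 in treated against naive mice, which passed at the margin (0.04996). The latter call was lost in 9 of 18 alternative fits, among them upper-quartile scaling (limma-trend adjusted p = 0.124) and the fits without naive replicate 1 (0.116), naive replicate 2 (0.0523), treated replicate 1 (0.0764) or treated replicate 2 (0.104). The EAE difference passed without naive replicate 3 (0.0395), EAE replicate 3 (0.0220), treated replicate 1 (0.0479) or treated replicate 3 (0.0401). Cdkn2c values were 180, 175 and 152 in naive, 167, 207 and 204 in EAE and 190, 155 and 162 in treated libraries, with overlap between all groups.

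The D cyclins divided by gene, with Ccnd1 and Ccnd2 low and Ccnd3 high in immunized mice. Ccnd2 was 1772, 1641 and 1770 in naive libraries, 1234, 1134 and 1205 in EAE libraries and 1470, 1434 and 1325 in treated libraries. No values were shared between the 3 groups: naive was highest, treated intermediate and EAE lowest. Ccnd2 fell by 0.54 ± 0.09 on the log2 scale in EAE against naive mice (limma-trend adjusted p = 0.00284) and by 0.30 ± 0.09 in treated against naive mice (0.0467). The call in treated mice was lost without naive replicate 1 (0.0965), naive replicate 3 (0.0692), treated replicate 2 (0.0663) or treated replicate 3 (0.0769), without scaling (0.0609) and with no filter on low values (0.0527). In treated against EAE mice it stood 0.24 ± 0.09 higher, with a 95% interval from 0.05 to 0.44. That difference did not pass (limma-trend adjusted p = 0.998, unadjusted 0.0187).

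Ccnd1 was 138, 130 and 145 in naive libraries, 95.7, 97.2 and 70.9 in EAE libraries and 109, 105 and 89.95 in treated libraries. The naive libraries lay above all others, and the immunized groups overlapped. Ccnd1 fell by 0.66 ± 0.19 in EAE against naive mice (limma-trend adjusted p = 0.0365), a call lost without naive replicate 1 (0.0682), without naive replicate 3 (0.0550) and without scaling (0.0799). In treated against naive mice the log2 difference was -0.44 ± 0.18 and did not pass (limma-trend adjusted p = 0.128), though it passed without EAE replicate 3 (0.0352).

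Ccnd3 was 2021, 2191 and 2154 in naive libraries, 2547, 2412 and 2423 in EAE libraries and 2721, 2860 and 2765 in treated libraries. Here too the 3 groups did not overlap, with naive lowest and treated highest. The log2 difference was 0.21 ± 0.09 in EAE against naive mice (limma-trend adjusted p = 0.119, not passed) and 0.39 ± 0.09 in treated against naive mice, where Ccnd3 rose (0.0117). The latter was lost without scaling (0.27 ± 0.12, limma-trend adjusted p = 0.180). In treated against EAE mice the log2 difference was 0.18 ± 0.09, with a 95% interval from -0.0096 to 0.36.

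Of the G1 kinases, Cdk6 changed more than Cdk4. Cdk6 was 3321, 3892 and 3024 in naive libraries, 5245, 5956 and 6632 in EAE libraries and 5266, 4895 and 5373 in treated libraries. All immunized libraries lay above the naive ones, and the treated libraries overlapped only with the lowest EAE library. Cdk6 rose by 0.81 ± 0.12 on the log2 scale in EAE mice (limma-trend adjusted p = 0.00163) and by 0.61 ± 0.12 in treated mice (0.00749), both against naive mice. The log2 difference between treated and EAE mice was -0.20 ± 0.12, with a 95% interval from -0.46 to 0.07.

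Cdk4 was 5665, 6068 and 5699 in naive libraries, 7061, 7944 and 6751 in EAE libraries and 7229, 7369 and 7519 in treated libraries. Again no immunized library reached down to the naive ones. The log2 difference was 0.32 ± 0.10 in EAE mice, which did not pass (limma-trend adjusted p = 0.0557), and 0.34 ± 0.10 in treated mice, which passed (0.0399). The call in treated mice was lost in 7 of 18 alternative fits, among them no scaling and upper-quartile scaling. In EAE mice 8 of 18 alternative fits passed. Those that ended the call in treated mice include the fits without naive replicate 1 (limma-trend adjusted p = 0.0808), naive replicate 3 (0.0517), treated replicate 2 (0.0714) or treated replicate 3 (0.0579). Those that passed in EAE mice include the fits without naive replicate 2 (0.0318), EAE replicate 1 (0.0462), EAE replicate 3 (0.0161), treated replicate 1 (0.0359) or treated replicate 3 (0.0362).

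**Figure D2:**
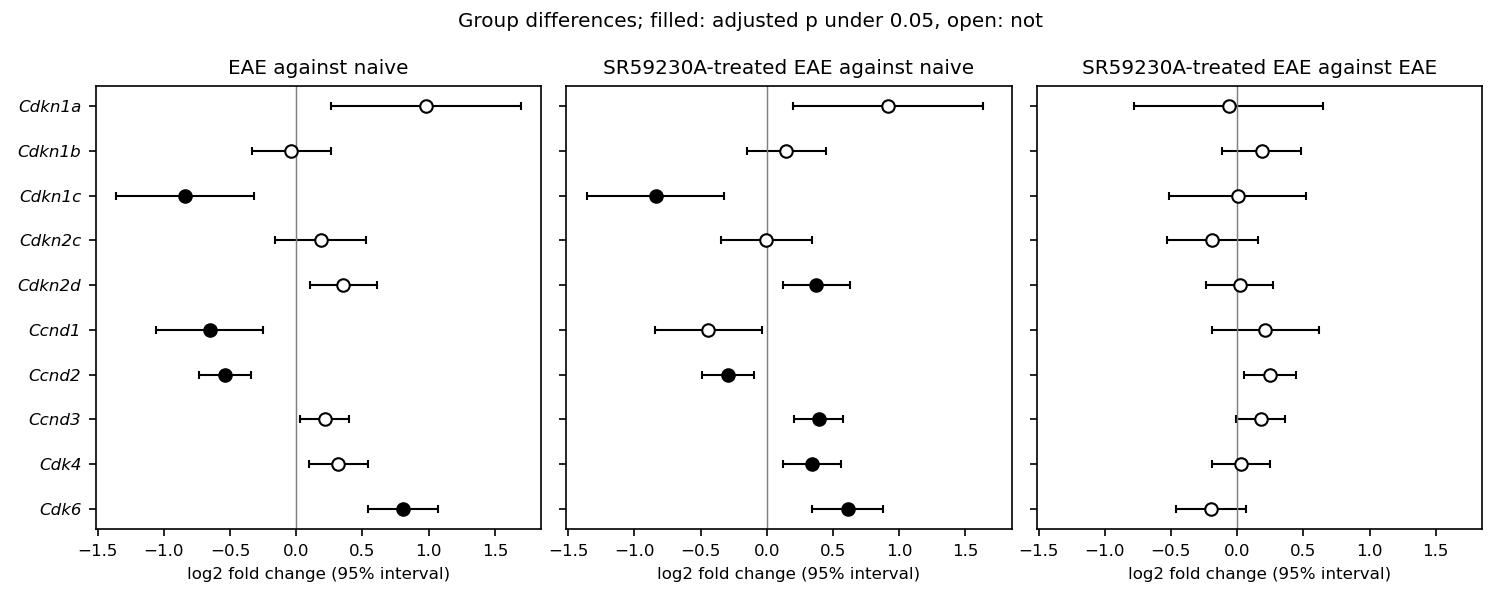
Log2 fold change with its 95% interval (horizontal axis) for each gene in the 3 comparisons; filled points passed the threshold of 0.05 on adjusted p. Cdk6 stands at 0.81 in EAE against naive mice, Cdkn1c at -0.84 in both comparisons with naive mice, and no point is filled in treated against EAE mice.

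By overlap alone, 7 of the 10 genes separated EAE from naive libraries fully, 4 higher and 3 lower, against 39.4% of all genes (21.0% higher and 18.4% lower). The same counts held in treated against naive libraries, against 48.8% of all genes (26.4% higher and 22.4% lower). In treated against EAE libraries, Ccnd2 and Ccnd3 separated the groups, both higher, against 16.2% of all genes (8.46% higher). At an unadjusted p under 0.05 in limma-trend, 1 of the 10 genes, Ccnd2, passed there, against 3.87% of all genes. The median log2 difference of the 10 genes was 0.20 in EAE against naive mice and -0.0032 over all genes. When both immunized groups were set against naive mice, a comparison added after the data were seen, 8 of the 10 passed against 20.5% of all genes, and Cdkn1a was among them (limma-trend adjusted p = 0.0352).

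Other features of the libraries moved with the groups. Of the 8 stem-cell markers tested, 7 fell in EAE against naive mice, beside 5.10% of all genes. The summed value of the 8 markers ranged from 8708 to 10143 in naive, 4002 to 4288 in EAE and 3998 to 4735 in treated libraries. All 7 granulocyte-monocyte progenitor markers rose in EAE mice, beside 9.13% of all genes. The sum of these markers ranged from 1855 to 2471 in naive, 13414 to 20496 in EAE and 13473 to 14552 in treated libraries. Their part in the differences of the cell cycle genes was not tested. The share of all values held by chemosensory receptor genes, which need not come from these cells, was 0.153% to 0.183% in naive, 0.108% to 0.122% in EAE and 0.0817% to 0.101% in treated libraries. With that share as a covariate, 0 of the 10 genes passed in either comparison with naive mice. The share did not overlap between the groups, so it and the group cannot be told apart in this design.

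Among the other lists of markers, 3 of 5 lymphoid-primed genes were lower in EAE against naive mice and none was higher. Of 5 megakaryocyte-erythroid genes 2 were higher and 1 lower. The shares of all genes called there were 9.13% higher and 5.10% lower. Without scaling these counts were 2 lower, and 1 higher and 1 lower, beside 606 higher and 453 lower of all 13018 genes. In treated against naive mice 1 lymphoid-primed and 3 megakaryocyte-erythroid genes were higher and none was lower. Among all genes, 10.2% were called higher there and 4.61% lower. Without scaling, 1 megakaryocyte-erythroid gene alone passed in treated against naive mice, beside 489 higher and 584 lower of all genes. The 1 gene called in treated against EAE mice, higher, was of the megakaryocyte-erythroid list. Of the lists for cells outside the gate, none of the tested T cell (1), B cell (2), neutrophil (5) and red cell (1) genes passed in any comparison. Of 2 tested genes of stroma and endothelium, Cdh5 was lower in EAE against naive mice. Its values were low and uneven, at 35.5, 18.95 and 123 in naive and 17.2, 3.07 and 2.08 in EAE libraries. The other, Pecam1, leaned the other way and did not pass, with means of 2417 in naive, 2983 in EAE and 3276 in treated mice. The summed neutrophil markers overlapped between all groups, at 424 to 1128 in naive, 541 to 2251 in EAE and 960 to 2299 in treated libraries.

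The difference between 2 related genes within a library does not depend on how libraries are scaled. Log2 of Ccnd2 minus log2 of Ccnd3 was -0.30 ± 0.11 in naive, -1.05 ± 0.04 in EAE and -0.98 ± 0.09 in treated mice (SD, n = 3 each). The naive libraries did not overlap with the others, while the immunized groups overlapped. Ccnd1 minus Ccnd3 showed the same order, at -3.94 ± 0.11 in naive, -4.80 ± 0.24 in EAE and -4.77 ± 0.15 in treated mice. Cdkn1c minus Cdkn1b was -1.63 ± 0.31 in naive, -2.43 ± 0.15 in EAE and -2.62 ± 0.49 in treated mice, again with the naive libraries apart.

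Cdk6 minus Cdk4 was -0.77 ± 0.14 in naive, -0.29 ± 0.23 in EAE and -0.51 ± 0.07 in treated mice. It was the only pair of the 6 in which all 3 groups separated, with the treated libraries between the others. Cdkn1a minus Cdkn1b and Cdkn2c minus Cdkn2d overlapped in all comparisons. With 3 libraries against 3, the smallest p that the 2-sided exact permutation test allows is 0.1, and each separated pair reached it (0.2 after adjustment over the 18 tests).

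**Figure D3:**
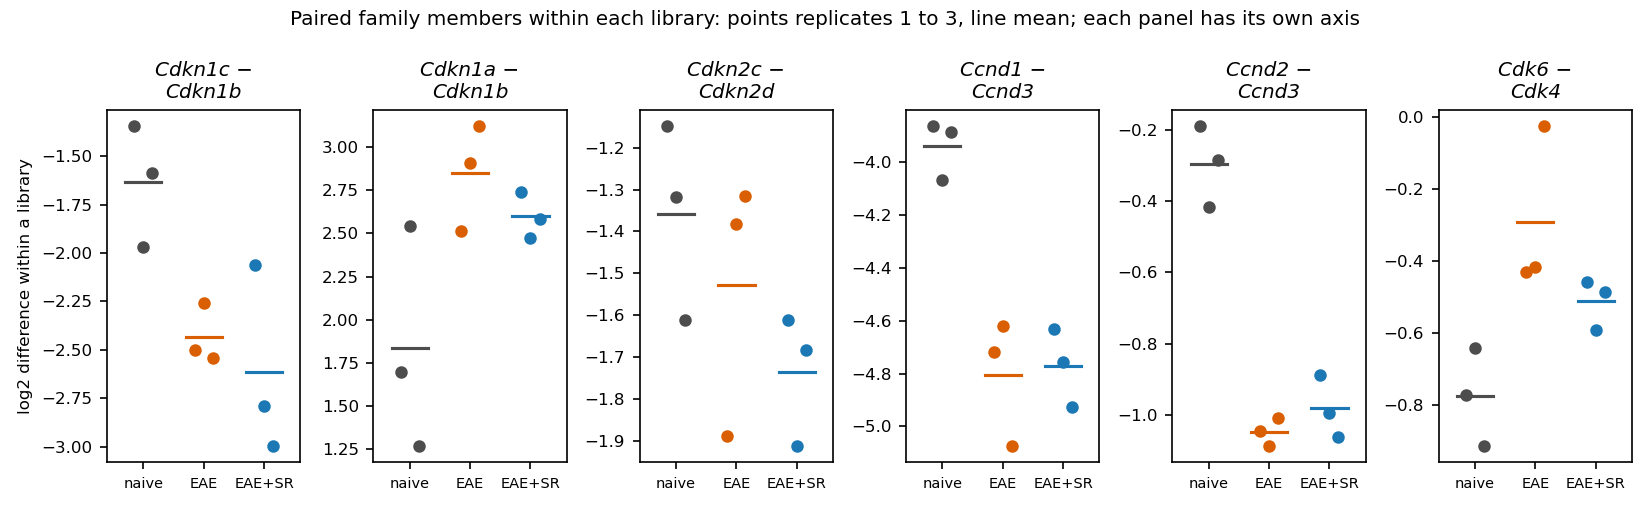
Log2 difference between 2 related genes within each library (vertical axis, own scale per panel) for 6 pairs; points are replicates and lines are group means, and EAE+SR marks the SR59230A-treated group. Ccnd2 minus Ccnd3 lies near -0.30 in naive and near -1.05 and -0.98 in the immunized groups.

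Of 13 tested genes for pocket proteins and E2F factors, which act downstream of the kinases, 2 rose and 1 fell in EAE against naive mice, beside 14.2% of all genes called, with a median log2 difference of 0.20. Tfdp1, which encodes the DP1 partner of E2F factors, rose by 0.63 ± 0.09 (limma-trend adjusted p = 0.00155), with 2182, 2277 and 2277 in naive and 3354, 3700 and 3359 in EAE libraries. E2f8, which encodes a repressive E2F, rose by 0.51 ± 0.10 (adjusted p = 0.00749, limma-trend), and Rbl2, which encodes the pocket protein p130 of quiescent cells, fell by 0.55 ± 0.12 (0.0124). Rb1 did not pass, at a log2 difference of -0.23 ± 0.12. In treated against naive mice 3 of the 13 rose (Tfdp1, E2f8 and E2f4) and none fell, beside 10.2% of all genes higher and 4.61% lower. There 2 rose and none fell without scaling, and 2 rose and 1 fell under upper-quartile scaling. None of the 13 passed in treated against EAE mice.

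Of 12 tested genes for cyclins E and A, CDK2, CDK1 and other G1/S regulators, 4 rose in EAE against naive mice and none fell (median log2 difference 0.29). The shares of all genes called there were 9.13% higher and 5.10% lower. Ccna2 (cyclin A2) rose by 0.50 ± 0.10 and Cdk1 by 0.44 ± 0.09 (limma-trend adjusted p = 0.00644 and 0.00635). Cks1b and Skp2, whose products act together in the ubiquitin ligase that marks p27 for degradation, rose by 0.45 ± 0.10 and 0.36 ± 0.11. Without scaling 1 of the 12 passed. In treated against naive mice Ccna2, Cdk1 and Skp2 rose, but none of the 12 passed without scaling and 2 passed under upper-quartile scaling. There 10.2% of all genes were called higher and 4.61% lower. Cdkn3, the only gene tested of the list of other inhibitors, did not pass in any comparison.

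Of 10 tested genes for proliferation, Top2a (topoisomerase of dividing cells) and Mcm2 (a replicative helicase subunit) rose in EAE against naive mice, by 0.37 ± 0.09 and 0.30 ± 0.09 on the log2 scale, and none fell. The shares of all genes called there were 9.13% higher and 5.10% lower. Under upper-quartile scaling and without scaling none of the 10 passed. Their median log2 differences were 0.21 and 0.26, against 0.29 in the reported fit. The medians of all genes shifted as well, to -0.078 and -0.034, against -0.0032, so the list medians are to be read relative to them. In treated against naive mice Top2a and Mcm4 rose, and again none of the 10 passed under either of these scalings. There 10.2% of all genes were called higher and 4.61% lower.

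Of 13 tested regulators of the inhibitors and D cyclins, 1 rose and 3 fell in EAE against naive mice. The shares of all genes called there were 9.13% higher and 5.10% lower. Mycn, a MYC family gene, fell by 0.98 ± 0.19 (limma-trend adjusted p = 0.00648), from 212, 188 and 250 in naive to 135, 93.1 and 102 in EAE libraries. Myc itself rose by 0.39 ± 0.11 (adjusted p = 0.0326, limma-trend), but not past the threshold without scaling or under upper-quartile scaling, where no gene of the list was higher. Foxo3 and Foxo4, FOXO factors that act on Cdkn1b, fell by 0.46 ± 0.09 and 0.43 ± 0.12. In EAE against naive mice 2 genes of the list were lower without scaling and 3 under upper-quartile scaling. In treated against naive mice Gfi1, Myc and Klf4 rose, and Foxo1, Foxo3 and Mycn fell, beside 10.2% of all genes higher and 4.61% lower. There, without scaling, 1 gene of the list was higher and 3 were lower, and under upper-quartile scaling 2 and 3.

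Cdkn1c is an imprinted gene, so other imprinted genes and its neighbours were read beside it. Of 10 tested, 2 rose and 2 fell in EAE against naive mice, and the same counts were found in treated against naive mice. Among all genes, 9.13% were called higher and 5.10% lower in EAE mice, and 10.2% and 4.61% in treated mice. Without scaling 1 of the 10 fell in EAE against naive mice. Meg3 and Dlk1, of another imprinted region, rose, Meg3 by 2.23 ± 0.19 (limma-trend adjusted p = 3.13e-05) and Dlk1 by 2.75 ± 0.30 (0.000219). Dlk1 stood at 17.2, 12.3 and 26.3 in naive, at 138, 87.0 and 161 in EAE and at 135, 110 and 109 in treated libraries. Ndn, an imprinted gene of another region, fell by 0.86 ± 0.23 and Cd81, a neighbour of the Cdkn1c region, by 0.67 ± 0.13. Slc22a18 and Phlda2, which lie close to Cdkn1c, did not pass, at log2 differences of -0.71 ± 0.27 and -0.22 ± 0.56.

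**Figure D4:**
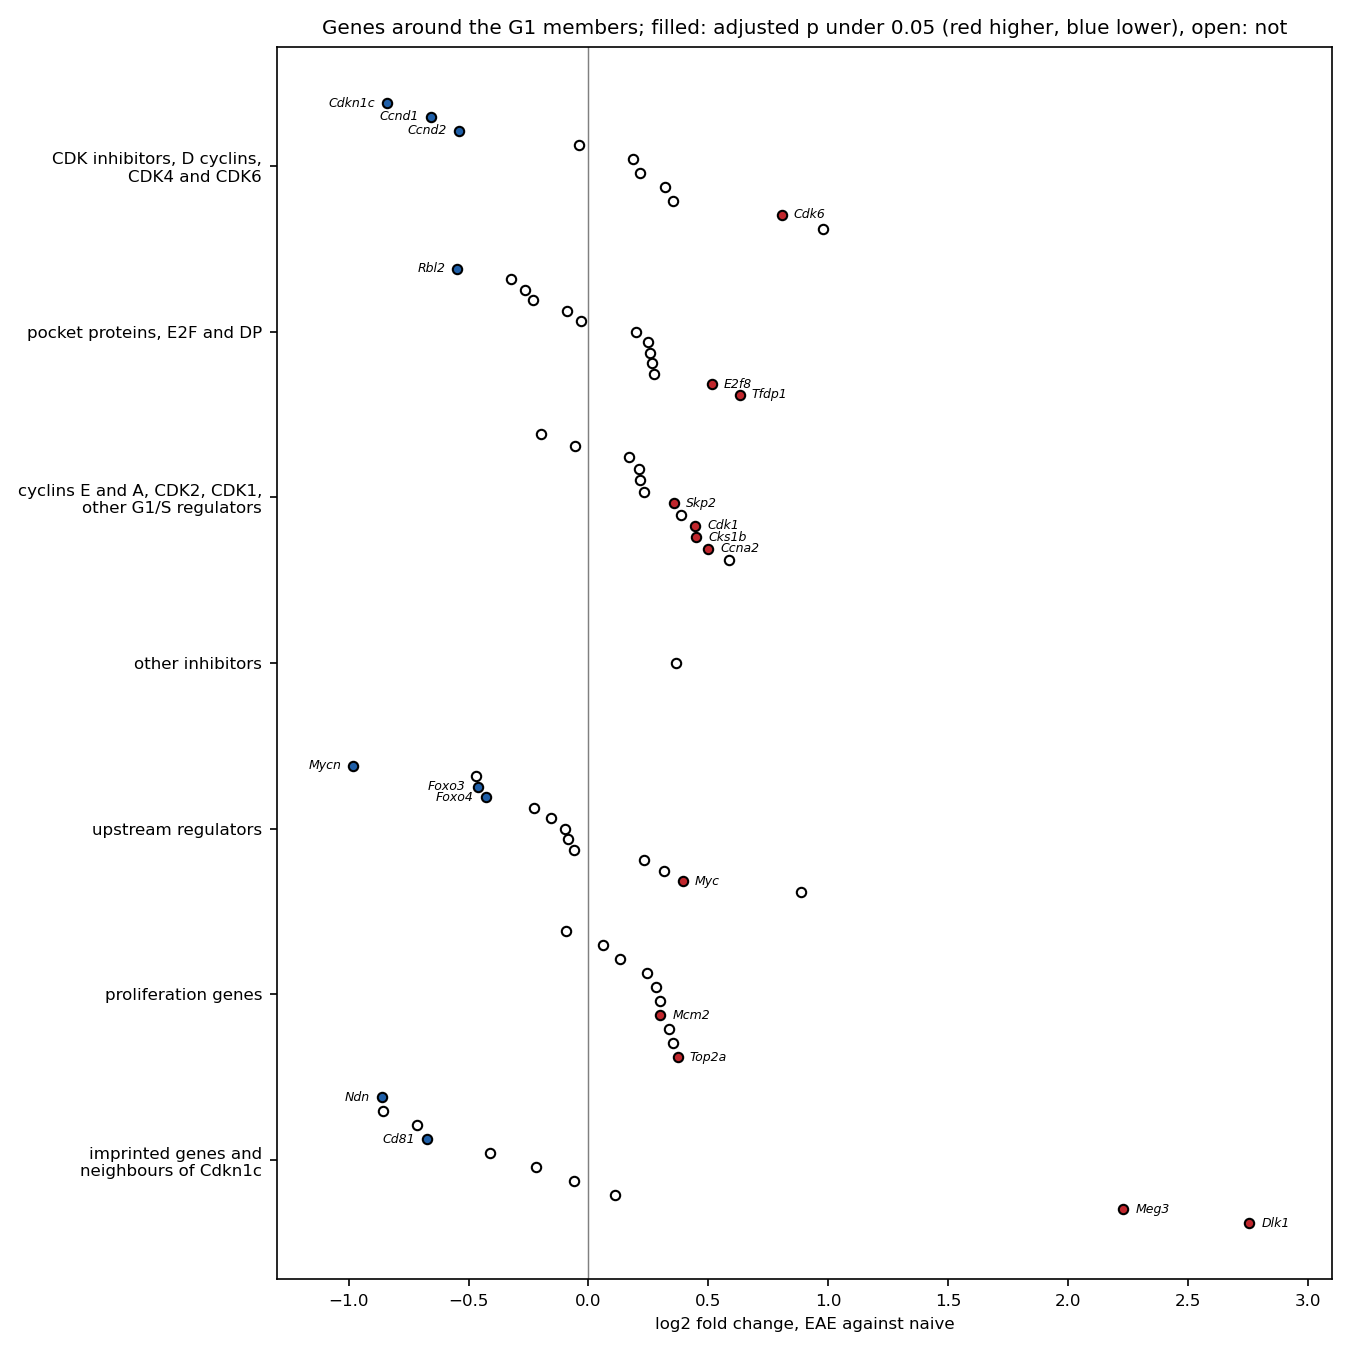
Log2 fold change in EAE against naive mice (horizontal axis) for the 10 genes and 6 lists of related genes (rows); filled points passed an adjusted p of 0.05, red for higher and blue for lower. Dlk1 at 2.75 and Meg3 at 2.23 stand farthest to the right, and all other points lie from -0.98 (Mycn) to 0.98 (Cdkn1a).

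The genes whose values followed the 3 members with the smallest adjusted p most closely were sought by the root mean square difference of centred log2 values over the 9 libraries, among genes with a mean of at least 100. For Cdk6 these were Wdr75 (0.080), Mboat1 (0.087) and Med21 (0.094), where the median over all genes compared was 0.360. For Ccnd2 they were Pml (0.041), Irf5 (0.044) and Mprip (0.053), against a median of 0.285. For Ccnd3 they were Top1 (0.032), Plbd2 (0.034) and Pstpip1 (0.037), against 0.194. Outside that rule, and chosen after its values were seen, Cdkn1a was nearest to Trib1 (0.142, against 0.615), and Cdkn1c to Tie1 (0.098, against 0.489), a receptor gene of endothelial and stem cells. The nearest of so many genes lie below the median by selection, so these distances do not tell whether a likeness is unusual.

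Promoter windows from RefSeq (GRCm38.p6) were at hand for 7 of the 10 genes, with 10 starts in all. For Cdkn1c, Ccnd1 and Ccnd2, the genes that fell in EAE mice, no window was at hand, so their promoters were not searched. Of the 4 genes that rose in treated against naive mice, Cdk4, Cdk6 and Ccnd3 are shown because their windows hold the matches described next, a choice made after the matches were seen. The window of Cdkn2d, which also rose, held neither an E-box nor TGACG and is not shown. Bases are 5′ to 3′ on the plus strand, within the 250 bases before the start and without bases in annotated exons, and capitals mark CACGTG (the E-box bound by MYC family factors) and TGACG or its reverse complement CGTCA (the core of the cAMP response element).
Cdk4, chr10:127063285-127063533: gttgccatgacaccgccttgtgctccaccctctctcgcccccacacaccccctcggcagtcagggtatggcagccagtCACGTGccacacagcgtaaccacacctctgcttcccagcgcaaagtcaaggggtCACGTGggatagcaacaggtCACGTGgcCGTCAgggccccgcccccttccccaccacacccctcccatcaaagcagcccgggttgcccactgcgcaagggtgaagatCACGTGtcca
Cdk6, chr5:3343789-3343892: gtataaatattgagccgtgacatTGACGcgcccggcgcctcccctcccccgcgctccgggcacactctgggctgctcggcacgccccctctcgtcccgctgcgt
Ccnd3 (start 1), chr17:47504801-47505050: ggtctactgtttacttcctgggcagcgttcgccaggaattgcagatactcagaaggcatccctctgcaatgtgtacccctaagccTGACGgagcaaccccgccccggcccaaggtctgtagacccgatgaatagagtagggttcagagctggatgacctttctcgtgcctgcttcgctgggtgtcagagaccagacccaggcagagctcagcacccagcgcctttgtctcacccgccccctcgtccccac

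The Cdk4 window held 4 E-boxes, at 172, 118, 98 and 11 bases before the start. Of 32851 windows of the same length, 6.02% held at least 1 and 0.0213% (7 windows) at least 4. Cdk6 had 1, at 220 bases before the start, outside the stretch printed, and no other window of the 7 genes had any. TGACG was found in the windows of Cdk4, Cdk6 and Ccnd3 and in 17.8% of all windows, and the full element TGACGTCA was in none of the 10 and in 1.55% of all. The E2F forms TTTCCCGC, TTTGGCGC, TTTCGCGC and TTTGCCGC were in none of the 10 and in 1.86% of all windows. The GC box GGGCGG was in 7 of the 10 and in 32.7% of all windows. All motifs were searched on both strands, and in the Cdk4 window no E-box overlapped TGACG. A match is a description of letters and no evidence that a factor bound there.

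**Figure D5:**
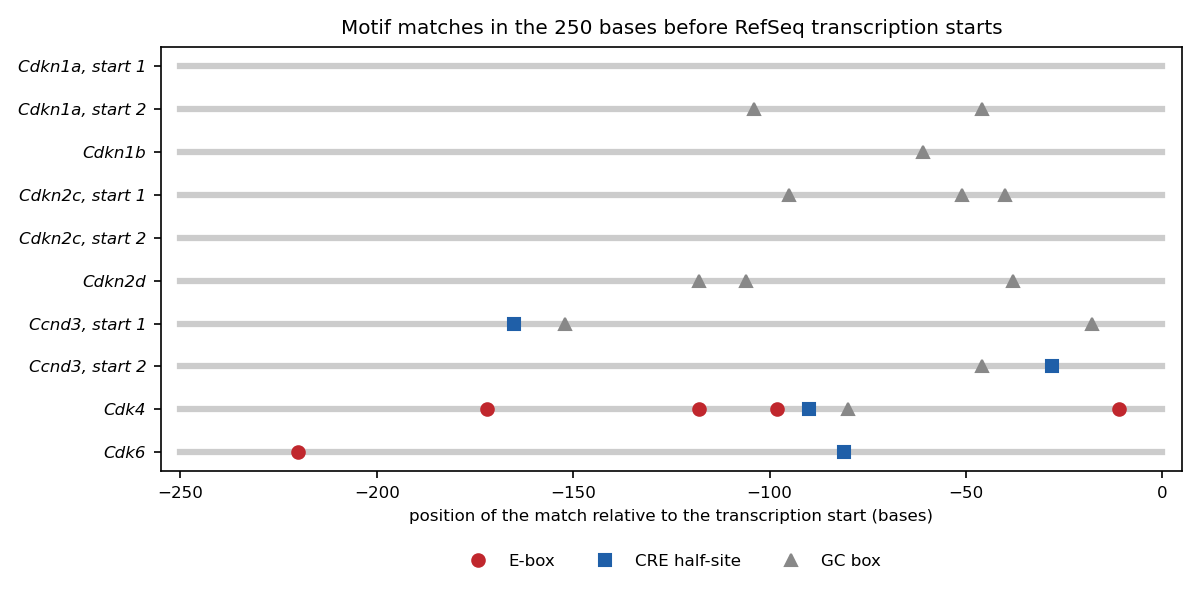
Position of each motif match (horizontal axis, bases before the transcription start) in the 10 windows of 250 bases (rows); circles are E-boxes, squares are TGACG matches and triangles are GC boxes. The Cdk4 window holds 4 circles, at 172, 118, 98 and 11 bases before the start, and Cdk6 holds 1.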

How the data were processed

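The data are 1 deposited table of whole numbers, with a column for each of 9 IonCode-barcoded libraries. Sorted cells gave RNA through an RNeasy micro kit, per the labels' protocols. DESeq2 appears, unversioned, in the submitters' processing notes. For aligner, counting tool and genome build, the sources used here give nothing. The deposited values are a score adjusted by the authors in an undescribed way, and not read counts: components 7 and 8 of ln(value + 1) over 4577 genes held 6.70e-05% and 5.94e-05% of the variance, so 2 linear relations tie the libraries. These directions lay within the groups (99.4% and 99.7%), so replicate spread may be understated.

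Genes at 10 or more in 3 libraries were kept (13018 of 14940, with all 10 members). Values were divided by median-of-ratios factors (0.900 to 1.107) and taken as log2(value + 1), which understates changes of low genes. Groups were compared by limma-trend (limma 3.58.1, R 4.3.3; 2-sided, Benjamini-Hochberg over all genes, threshold 0.05) on group coefficients plus those 2 directions (residual degrees of freedom 4, prior 7.52). The scripts were tested on simulated data. Changes were put into 200 of 13018 genes. Of 2-fold changes, 60.2% to 63.7% were recovered, depending on the comparison, and of smaller ones 25.6% to 35.9%. A gene that did not pass may therefore still differ. False calls made up 2.65% to 5.21% of the calls. In the data 1853 and 1932 genes were called against naive mice, far more than were changed here, so these rates need not hold in those comparisons. Replicates are described as separate mice, and their numbers follow deposition order and pair nothing.

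Named genes are the 10 members, genes of the fixed lists that passed, and the nearest genes by the likeness rule. Some listed genes that did not pass are also named (Rb1, Trp53, Mdm2, Cdkn3, Slc22a18, Phlda2 and Pecam1), while others that did not pass are not. Trib1 and Tie1 were named outside the likeness rule. The members, lists and tests were chosen with earlier results of these data known. Alternatives covered the pseudocount, filter, scaling, covariates, prior, libraries fitted and each library left out. Listed symbols that the table does not hold were not analysed here.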

Additional observations from a re-analysis of the deposited data

How the results depend on the processing

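Numbers of members called were 4 in EAE against naive, 0 in treated against EAE and 6 in treated against naive mice. Without scaling they were 2 in each comparison with naive mice, and all genes called fell from 1853 to 1059 and from 1932 to 1073. With no scaling the median of all genes in treated against naive mice was -0.11 against 0.0071, so its log2 differences are to be read relative to that shift. Upper-quartile scaling gave 807 genes higher and 910 lower in EAE against naive mice (1189 and 664 in the reported fit) and 835 and 954 in treated against naive mice (1332 and 600). Group coefficients alone gave 7 members and 3485 genes in EAE against naive mice and 3920 genes in treated against naive mice. The chemosensory share as a covariate gave 0 members in both, 111 and 13 genes, and 0 genes in treated against EAE mice (1 in the reported fit). The comparison of both immunized groups with naive mice gave 8 members, and the 6 libraries of treated against naive mice alone gave 4442 genes. Leaving out 1 library gave 2 to 6 members and 1239 to 2624 genes in EAE against naive mice, 0 members and 1 gene in treated against EAE mice, and 2 to 7 members and 1234 to 3327 genes in treated against naive mice. The lowest values came without naive replicate 1, and for treated against naive members also without treated replicate 2; 3327 genes came without EAE replicate 3 and 2967 without EAE replicate 2.

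Signs of small log2 differences turned in some fits. In treated against EAE mice without scaling these were Cdkn1c (-0.081), Cdkn2d (-0.066) and Cdk4 (-0.060), with upper-quartile scaling Cdkn1c (-0.015), and with the chemosensory share Cdkn1c (-0.30) and Cdkn2d (-0.0052). With that share Cdkn1a (-0.42) and Cdkn2c (-0.15) turned in EAE against naive mice, and Cdkn1a (-1.42) and Cdkn1b (-0.11) in treated against naive mice. Leaving out 1 library also turned signs, with ranges from -0.026 to 0.094 for Cdk4, -0.25 to 0.095 for Cdkn1a, -0.21 to 0.15 for Cdkn1c and -0.044 to 0.10 for Cdkn2d in treated against EAE mice, from -0.11 to 0.090 for Cdkn1b in EAE against naive mice and from -0.090 to 0.055 for Cdkn2c in treated against naive mice. The cause was not tested. No paired analysis was possible because the replicate numbers follow deposition order and the columns carry no pairing. Depth cannot be recovered from these values, so counting precision is unknown.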
